A study of Mus musculus with 11 samples.

Results

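The genes of the T cell receptor beta chain were examined in sorted splenic CD8+ T cells of wild-type C57BL/6J mice at 2 ages. The members were every gene whose symbol starts with Trbv, Trbd, Trbj or Trbc, which gave 53 of the 54532 genes in the count table: 35 variable (V), 2 diversity (D), 14 joining (J) and 2 constant (C) genes. The cells carried CD8, CD44, Ly49 and CD122, the phenotype the study calls CD8+ Tregs, and were enriched with beads and then sorted by flow cytometry. There were 11 RNA-seq libraries, 6 from young mice (3 of each sex) and 5 from middle-aged mice (2 of males, 3 of females). Young mice were 2 to 3 months old. The older mice, labelled Old and called middle-aged here, were 10 to 12 months old. No library came from another CD8+ subset, so the usage described here is that of the sorted cells and cannot be set against naive CD8+ T cells. All groups shared the genotype, the tissue and the sort, and nothing in the labels says whether a library held cells of 1 mouse or of several. The p-values below therefore measure the spread between these libraries.

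Most T cells carry a receptor made of an alpha and a beta chain. During development in the thymus the beta locus is cut and rejoined, so that 1 V, 1 D and 1 J segment form the exon for the variable domain, which is then spliced to a constant gene. The choice of V segment fixes much of the part of the chain that touches the antigen-presenting molecule, and the bases around the joins form the third complementarity-determining region, which touches the peptide. A population in which a few clones have expanded carries some V segments far more often than others, and Shannon entropy, which is highest when all segments are used equally, describes how even the use is. In bulk RNA these shares count transcripts, not cells, so fewer cells with a V segment and less receptor RNA per cell cannot be told apart.

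All 53 genes lay on mouse chromosome 6, GRCm38 build, from Trbv1 at chr6:40891229-40891885 to Trbv31 at chr6:41557691-41558452. Trbv31 was the only member on the minus strand and lies beyond the constant genes, whereas the other V segments lie upstream of the D segments. The V segments end with a conserved cysteine codon that opens the third complementarity-determining region. The 3′ ends of the most used V genes and of their close relatives are given from GENCODE M21 (GRCm38) transcripts, 5′ to 3′, because these families set the usage described next. The last 48 bases are shown, with the cysteine codon in capitals.
Trbv12-2: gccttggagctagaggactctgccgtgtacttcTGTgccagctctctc
Trbv12-1: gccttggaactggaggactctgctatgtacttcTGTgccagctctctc
Trbv13-1: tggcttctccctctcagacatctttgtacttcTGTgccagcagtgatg
Trbv13-2: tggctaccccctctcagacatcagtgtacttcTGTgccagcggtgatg
Trbv13-3: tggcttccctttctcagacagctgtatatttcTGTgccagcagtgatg
Trbv16: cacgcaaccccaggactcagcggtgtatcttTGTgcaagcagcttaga
Trbv3: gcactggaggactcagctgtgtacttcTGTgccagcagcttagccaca
Trbv19: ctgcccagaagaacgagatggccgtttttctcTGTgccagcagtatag

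The relatives were close. Over the transcript, Trbv12-1 and Trbv12-2 were identical at 88.3% of 385 aligned bases, and Trbv13-2 and Trbv13-3 at 90.6% of 340. Trbv12-2 and Trbv16, the most used pair, were identical at 58.8%. A stretch of 31 bases shared with another V gene was found in 6 of the 35 V genes, all of the Trbv12 and Trbv13 families. It covered 10.4% of the 31-base windows of Trbv12-2, 10.97% of those of Trbv13-2 and 11.3% of those of Trbv13-3, so the split of reads within these families is less certain than their sum. The constant genes Trbc1 and Trbc2 were identical at 87.7% of 681 aligned bases and shared 321 such windows, 45.4% of those of Trbc1 and 48.5% of those of Trbc2, so their split is uncertain.

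The libraries held 6135736 to 24394532 counts, and 0.211% to 0.528% of these fell on the beta chain genes. Within a library the constant genes took 65.0% to 76.9% of the beta counts, the V genes 21.5% to 30.5%, the J genes 0.716% to 3.53% and the D genes 0.657% to 1.32%. The usage of V segments rested on 5008 Trbv counts in young male 1, the shallowest library, and on 9567 to 23919 in the others. The T cell markers of the list were Cd3d, Cd3e, Cd3g, Cd8a, Cd8b1 and Trac. Their sum was 5592 to 12867 CPM in young and 5171 to 10471 CPM in middle-aged libraries. CPM are counts scaled to the library total, with TMM factors. Cd8a was at 641 CPM or more in every library. The genes of the sort (Cd44, Il2rb for CD122, and the Ly49 genes Klra1, Klra6 and Klra7) and Ikzf2, which encodes Helios, together summed to 1888 to 3649 CPM. Genes listed as markers of other cells summed to lower levels. All 8 NK cell genes summed to 812 to 1181 CPM in young and 642 to 1152 CPM in middle-aged libraries. The study reports that CD8+ Tregs rely on Eomes and carry NK receptors, so this sum is not specific to NK cells. Its genes did not move together. Eomes stood at 72.6 to 218 and 155 to 332 CPM, and Klre1 at 132 to 396 and 202 to 589 CPM. Ncr1 stood at 25.1 to 120 and 1.80 to 48.8 CPM. Gzma stood at 215 to 472 CPM in young libraries, 334 in middle-aged female 2 and 23.5 to 43.7 in the other middle-aged libraries. The 3 NKT cell genes summed to 171 to 263 and 87.3 to 174 CPM. Nearly all of this was Slamf6, at 49.7 to 172 CPM, and Cd1d1, at 31.3 to 90.7 CPM. Zbtb16 was at 0 in 6 libraries and reached at most 0.863 CPM. Of the 5 gamma delta T cell genes 2 were found, and these summed to 11.8 to 32.5 and 12.9 to 19.5 CPM. All 6 B cell genes summed to 130 to 377 CPM in young and 168 to 591 CPM in middle-aged libraries, and all 6 myeloid genes to 164 to 430 and 189 to 1391 CPM. Both maxima were those of middle-aged female 2. Of the myeloid genes, Cst3 stood at 97.9 to 359 CPM over all libraries. Lyz2 stood at 1057 CPM in middle-aged female 2 and at 18.7 to 285 CPM in the others. In young male 1 and young female 1, Csf1r and Itgam were at 0 to 0.139 CPM. All 5 genes of the CD4+ T cell list summed to 21.5 to 132 CPM in young and 73.6 to 151 CPM in middle-aged libraries. Middle-aged female 2 held the lowest sum of its age, most of it Cxcr5, at 46.4 CPM against 69.2 to 122 in the other middle-aged libraries. Its Zbtb7b and Cd40lg, at 1.42 and 0.376 CPM, were also the lowest of its age. Its Cd4 stood at 15.4 CPM, beside 15.4 in middle-aged female 3 and 1.53 to 2.36 in the other middle-aged libraries. Its Foxp3, the factor of CD4+ regulatory T cells, stood at 9.97 CPM against 0 to 4.07 in all other libraries. The part of these other cells in the results was not tested.

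Of the 35 Trbv genes, 22 were not listed as pseudogenes. 22 genes had counts in every library, 5 in some, and 8, each of them a pseudogene, were at 0 in all. The order of use was steep. The 10 Trbv genes that took at least 5% of the Trbv counts in any library were Trbv12-2, Trbv16, Trbv13-2, Trbv12-1, Trbv1, Trbv3, Trbv13-1, Trbv13-3, Trbv17 and Trbv19, and 6 of them held at least 5% in every library. The 5 most used genes of a library together held 47.8% to 57.7%. The 6 genes of the Trbv12 and Trbv13 families, a sum that does not depend on how reads were split within it, took 41.6% to 45.7%. At the low end, 4 segments that are not pseudogenes stayed under 1% in every library.

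Trbv12-2, which encodes the V beta 5.1 domain, took the largest share in 10 of the 11 libraries. In young libraries it held 14.1% at the lowest, 14.7% at the median and 16.2% at the highest. In middle-aged libraries it held 13.7% and 14.7% in males 1 and 2, and 12.4%, 11.6% and 14.8% in females 1, 2 and 3. The means were 14.96% ± 0.799 (SD, n = 6) and 13.4% ± 1.41 (SD, n = 5), and 3 middle-aged libraries lay below every young one while the other two lay among them. Trbv16, the V beta 11 segment, was the second gene in those 10 libraries and the first in middle-aged female 1, at 13.9% against 12.4% for Trbv12-2. Its means were 12.2% ± 1.49 (SD, n = 6) in young and 12.6% ± 1.02 (SD, n = 5) in middle-aged libraries, well within the spread.

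The related Trbv12-1 (V beta 5.2) and the 3 Trbv13 genes (the V beta 8 family) came next. Trbv12-1 held 6.41% to 9.29% in young libraries, with a median of 7.74%. In middle-aged males 1 and 2 it held 10.3% and 8.79%, and in females 1, 2 and 3 it held 8.57%, 7.94% and 8.05%. Only the first of these lay above all young libraries. Trbv13-2, V beta 8.2, had the narrowest spread of these genes, with 8.32% to 9.28% in young libraries and a median of 8.97%. In middle-aged libraries it held 7.46% and 7.57% in males and 7.56%, 8.42% and 8.43% in females, so that 3 of the 5 lay below every young library. Trbv13-1 and Trbv13-3 overlapped between the ages, with means of 6.403% and 5.79% in young and 6.81% and 5.96% in middle-aged libraries.

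Trbv1, the first gene of the locus, held 6.01% to 10.4% in young libraries, the highest value being that of young male 1, and 6.04% to 7.36% in middle-aged libraries. Trbv17 held 4.33% to 6.02% and 4.09% to 5.69%. Trbv3 (V beta 16) held 4.75% to 7.92% in young libraries, and 8.001% and 8.70% in middle-aged males. In middle-aged females it held 7.51% and 8.12% in libraries 1 and 3, but 2.77% in library 2, with a 95% Wilson interval of 2.52% to 3.05% on 410 of 14783 counts. Among the V genes with a mean share of at least 1% this was the widest spread relative to counting, with an SD over the 11 libraries of 7.41 times the counting SD. Without middle-aged female 2 the ratio for Trbv3 was 4.59, and the widest was the 5.60 of Trbv1. The middle-aged mean of Trbv3 was then 1.30 points above the young mean, with 3 of 4 libraries above every young one.

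Trbv19 (V beta 6) and Trbv20 (V beta 15) mostly lay higher in middle-aged libraries. Trbv19 held 2.94% to 5.03% in young libraries, with a median of 4.61%. It held 4.88% and 5.30% in middle-aged males 1 and 2 and 6.09%, 7.62% and 6.21% in middle-aged females 1, 2 and 3, and 4 of these 5 lay above every young library. The means were 4.38% ± 0.767 (SD, n = 6) and 6.02% ± 1.05 (SD, n = 5). Trbv20 held 1.38% to 1.87% in young libraries. Its middle-aged values were 1.61% and 2.61% in males and 2.13%, 3.63% and 2.26% in females, again with 4 of 5 above every young library. For both genes the highest value was that of middle-aged female 2. When that library was left out, Trbv19 had a middle-aged mean of 5.62% and Trbv20 one of 2.15%, 1.23 and 0.503 points above the young means, with 3 of 4 libraries above every young one for each gene. With the shares as percentages of 1 whole, a higher share of some segments needs a lower share of others, and the shares are not independent of each other.

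**Figure D1:**
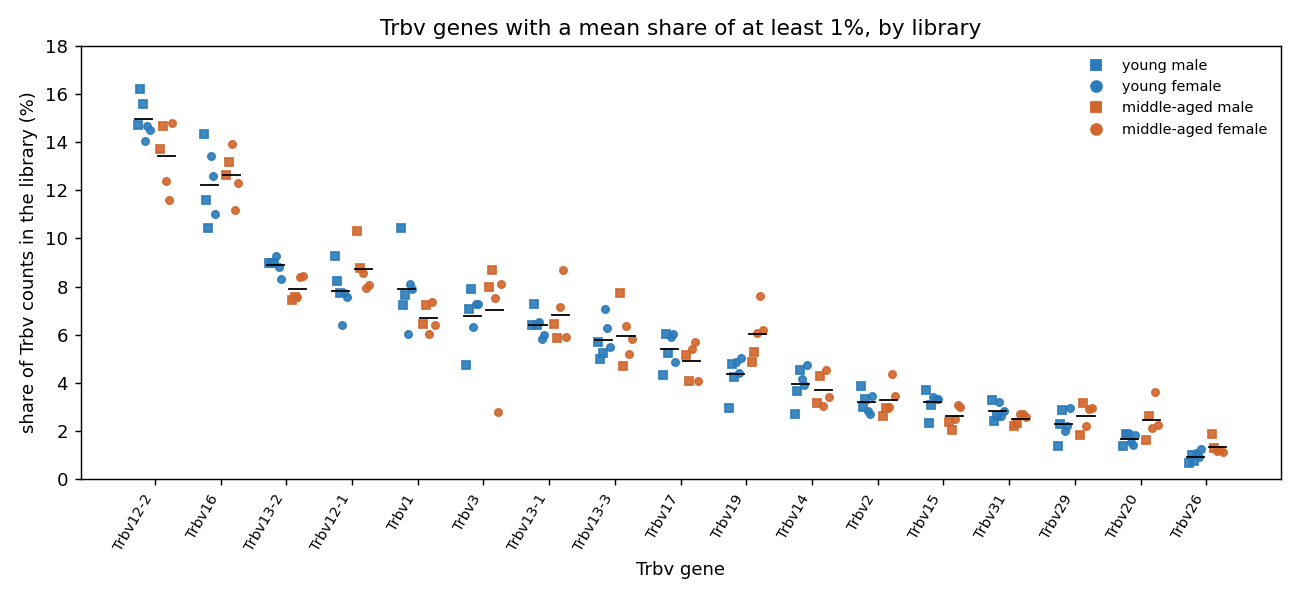
Share of the summed Trbv counts (y axis, percent, from 0) of each Trbv gene with a mean share of at least 1% (x axis, in order of mean share), with 1 point per library, young in blue, middle-aged in orange, squares for males, circles for females, and a black line at the mean of each age. Trbv12-2 and Trbv16 lead at 10.4% to 16.2%, and the single low orange point of Trbv3 at 2.77% is middle-aged female 2.

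Over the 17 Trbv genes with a mean share of at least 1%, the mean was higher in middle-aged libraries for 10 and lower for 7, and the direction was the same in males and females for 12. The difference between the age means had a median size of 0.414 percentage points, and the largest was the 1.63 points of Trbv19. Without middle-aged female 2 the largest was the -1.36 points of Trbv1. The age groups overlapped in share for all 22 Trbv genes with counts in every library, and for the 5 with counts in some. The 8 genes at 0 in all libraries could not differ. The libraries differed by more than counting error alone: the SD over libraries was 2.33 to 7.41 times the counting SD for the 17 genes, with a median of 4.02. Counting intervals cover counting error only.

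How even V beta use was at each age was compared with the entropy of the shares. Entropy was 3.80 bits at the lowest, 3.90 at the median and 3.96 at the highest in young libraries. In middle-aged libraries it was 3.890 and 3.892 bits in males 1 and 2 and 3.943, 3.958 and 3.907 bits in females 1, 2 and 3. The ages overlapped, and the lowest 2 values of all were those of young males 1 and 2. Equal use of the 22 segments that are not pseudogenes would give 4.46 bits, and the observed values were those of 13.96 to 15.5 equally used segments. The means were 3.89 ± 0.0550 bits (SD, n = 6) in young and 3.92 ± 0.0306 bits (SD, n = 5) in middle-aged libraries, a difference of 0.0291 bits with a 95% interval of -0.032 to 0.092 from inverting the test (exact two-sided permutation p = 0.338).

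The largest share of a library was 14.1% to 16.2% in young libraries and 11.6% to 14.8% in middle-aged libraries, with means of 14.96% ± 0.799 (SD, n = 6) and 13.7% ± 1.28 (SD, n = 5). The difference of -1.21 percentage points had an interval of -2.68 to 0.060 and did not pass the threshold of 0.05 (exact permutation p = 0.0693). Without middle-aged female 3 the difference was -1.48 points at an exact permutation p of 0.0429. Without middle-aged female 2 it was -0.68 points (exact permutation p = 0.190), and the middle-aged range was 13.7% to 14.8%.

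**Figure D2:**
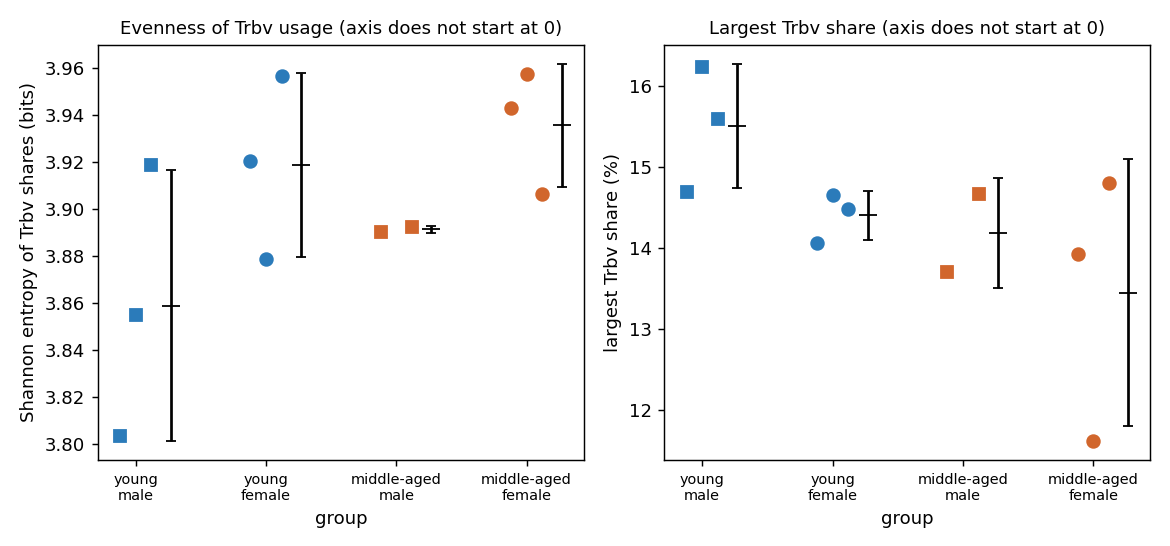
Shannon entropy of the Trbv shares in bits (left) and the largest Trbv share in percent (right) for each library, by age and sex (x axis), with the mean and SD of each group in black, and y axes that do not start at 0. Young males 1 and 2 have the lowest entropies, 3.80 and 3.86 bits, and middle-aged female 2 the lowest largest share, 11.6%.

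Males had lower entropy than females, with 3.87 ± 0.0446 bits (SD, n = 5) against 3.93 ± 0.0311 bits (SD, n = 6). The difference of -0.0554 bits had an exact permutation p of 0.025 with sex permuted within age (200 splits). Adjusted over the 14 tests of usage in this report, its p was 0.117, and without young male 1 the difference was -0.0382 bits at p = 0.080 (exact permutation). The unadjusted p was 0.05 or higher also without young male 2, young female 1 or 3, or middle-aged female 1 or 2. The age difference was 0.0170 bits in females and 0.0324 bits in males, and these did not differ beyond the spread (exact permutation p = 0.785).

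The distance between libraries in usage was measured as the Bray-Curtis distance, the share of counts that would have to move to other genes to make 2 libraries alike. It was 0.0348 at the lowest, between young male 3 and young female 3, and 0.151 at the highest, between young male 1 and middle-aged female 2. These 2 libraries were the most distant from the rest, with mean distances of 0.113 and 0.120 against 0.0701 to 0.0901 for the other 9. Pairs of young libraries lay 0.0732 apart on average (15 pairs) and pairs of middle-aged libraries 0.0896 (10 pairs), a difference of 0.0164 (exact permutation p = 0.481) that turned to -0.0058 without middle-aged female 2.

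A further comparison was added after the shares had been seen. Pairs of different age lay 0.0904 apart on average (30 pairs) and pairs of the same age 0.0798 (25 pairs). The difference of 0.0106 had a one-sided exact permutation p of 0.00866, and 0.015 with age permuted within sex. Without middle-aged female 2 it was 0.0121 at p = 0.0143 (exact permutation). It did not pass after adjustment over the 14 tests (adjusted permutation p = 0.117), and without young female 2 or middle-aged female 1 the unadjusted exact p was 0.0714. For sex the same measure was -6.8e-05 (one-sided exact permutation p = 0.385). None of the 14 tests passed 0.05 after Benjamini-Hochberg adjustment.

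**Figure D3:**
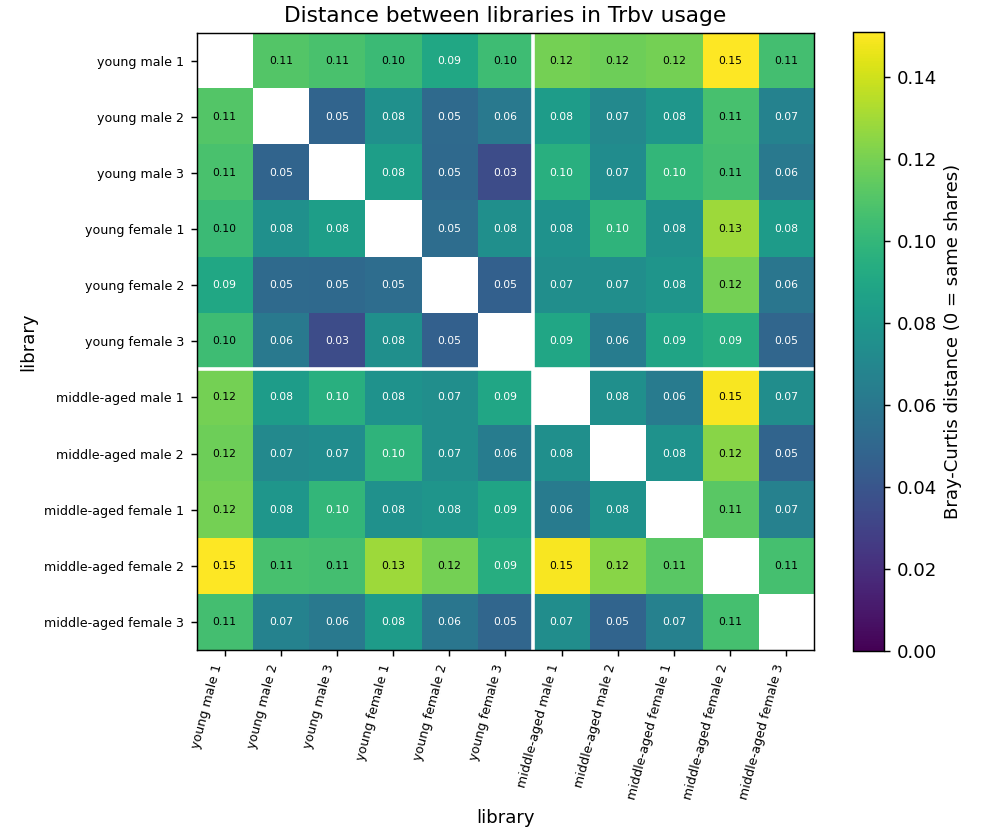
Bray-Curtis distance between each pair of the 11 libraries in Trbv usage (colour and printed value, 0 for the same shares), with libraries on both axes in the order young, then middle-aged, split by white lines. The row of middle-aged female 2 and that of young male 1 hold the highest values, up to 0.151.

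The alpha chain, the partner of the beta chain, served as a comparison. The entropy over 128 Trav genes was 5.45 ± 0.141 bits (SD, n = 6) in young and 5.45 ± 0.0814 bits (SD, n = 5) in middle-aged libraries (exact permutation p = 0.991). Across the 11 libraries the beta and alpha entropies had Pearson's r = 0.681 (permutation p = 0.0226) and Spearman's rho = 0.482 (permutation p = 0.137). Without young males 1 and 2, the libraries farthest from the median of beta entropy, r was 0.484 (permutation p = 0.184, n = 9). The relation did not pass 0.05 without those libraries. Young male 1 had the lowest of both entropies, 3.80 bits for beta and 5.19 bits for alpha. Young male 2 had a low beta entropy of 3.86 bits, but its alpha entropy of 5.51 bits lay above the median of 5.47 bits. Both entropies come from the same libraries and share their depth. The between-age minus within-age distance for Trav usage was 0.0045 (one-sided exact permutation p = 0.214).

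The J segments carried few counts, 300 to 1581 per library, and the D segments 263 to 808. How reads were assigned to genes this short is not given in the sources used here. The D segments and the 3 J genes that led in at least 1 library are given from GENCODE M21, 5′ to 3′, with the codons of the conserved FGXG motif (phenylalanine, glycine, any residue, glycine), which most functional J segments carry, in capitals where it occurs.
Trbd1: gggacagggggc
Trbd2: gggactgggggggc
Trbj1-5: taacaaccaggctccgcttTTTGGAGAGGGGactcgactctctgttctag
Trbj2-6: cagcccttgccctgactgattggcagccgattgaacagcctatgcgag
Trbj2-7: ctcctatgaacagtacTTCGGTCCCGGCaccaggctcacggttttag

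The motif occurred in 11 of the 14 J genes and not in Trbj2-6, which the table lists as a pseudogene. Trbj2-6 nevertheless held the most counts of the J genes in young male 1, middle-aged male 1 and middle-aged female 2, at 21.3%, 22.7% and 20.2% of the Trbj counts. Whether counts on the J genes follow J use in the receptor was not tested. Trbj2-7 led in young male 2, middle-aged male 2, young females 1 and 2 and middle-aged female 1, at 14.5% to 19.8%. Trbj2-6 lies just upstream of Trbj2-7 (chr6:41543598-41543645 and chr6:41543810-41543856). Trbj1-5 led in young male 3, young female 3 and middle-aged female 3, at 12.1% to 16.6%. Trbd1 and Trbd2 took 44.1% to 58.2% and 41.8% to 55.9% of the D counts.

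Trbj1-5 thus led in the libraries whose label carries the replicate number 3 and in no other, and the level of the whole Trbj1 cluster went with this number. The Trbj1 genes had 1.43 to 2.22 counts per 100 Trbv counts in the 4 libraries numbered 1, 2.46 to 2.98 in the 4 numbered 2, and 6.43 to 8.20 in the 3 numbered 3, with no overlap. The Trbj2 genes moved less, with 1.89 to 3.77, 2.92 to 3.22 and 3.92 to 4.29. The share of Trbj2 genes in the Trbj counts was therefore 56.9% to 69.9%, 49.6% to 56.7% and 34.2% to 37.9%. The labels give the number as part of the library name and say nothing of a batch. Other values also differed between the numbers. The summed Trbv level was 904 to 1328, 617 to 950 and 514 to 697 CPM. The Trbc level was 2582 to 4744, 1536 to 2550 and 1307 to 1725 CPM. The sum of the T cell markers was 8217 to 12867, 5838 to 8293 and 5171 to 5677 CPM. The B cell sum was 130 to 224, 181 to 591 and 373 to 500 CPM, the 591 being that of middle-aged female 2. Their part in the J values was not tested.

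Between the ages, the Trbj2 share was 49.0% ± 11.3 (SD, n = 6) in young and 55.7% ± 12.3 (SD, n = 5) in middle-aged libraries. The difference of 6.74 percentage points had an interval of -10.0 to 23.0 (exact permutation p = 0.348). Among libraries of the same number the middle-aged mean was higher by 6.68, 2.40 and 2.25 points. For the last, number 3, the middle-aged side was middle-aged female 3 alone, at 37.9%.

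**Figure D4:**
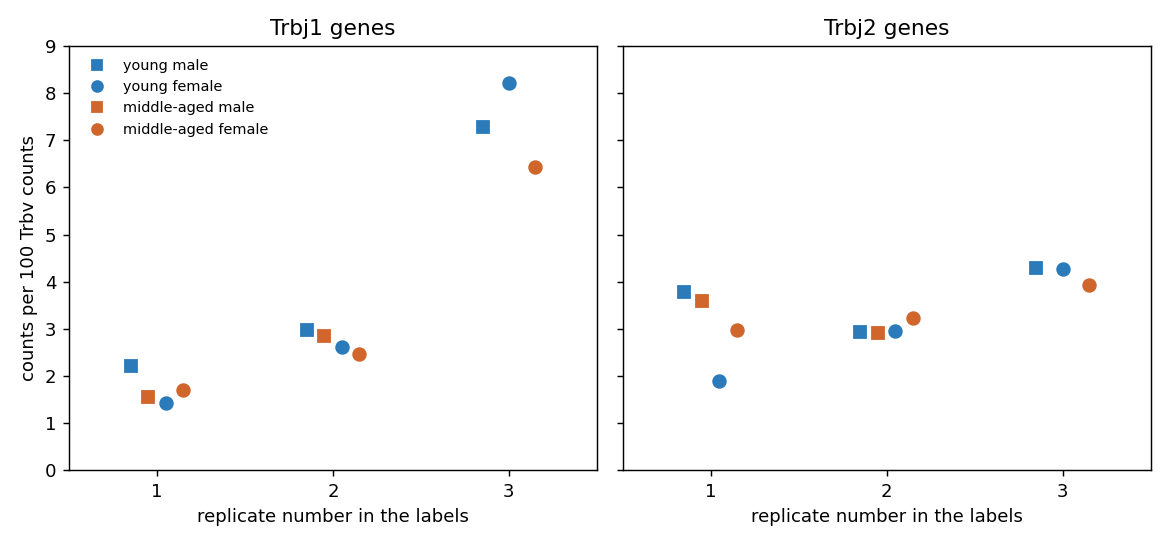
Counts of Trbj1 genes (left) and Trbj2 genes (right) per 100 Trbv counts (y axis, from 0) for each library, by the replicate number in its label (x axis), with age in colour and sex by marker shape. Trbj1 lies at 1.43 to 2.22 for number 1 and at 6.43 to 8.20 for number 3, whereas Trbj2 stays between 1.89 and 4.29.

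Trbc2 took most of the constant gene counts. Its share was 65.7% to 72.1% in young libraries, and 70.5%, 70.9%, 70.1%, 63.3% and 70.9% in middle-aged males 1 and 2 and females 1 to 3, so that middle-aged female 2 stood below all others. The means were 69.5% ± 2.79 (SD, n = 6) and 69.1% ± 3.28 (SD, n = 5), a difference of -0.381 points with an interval of -4.60 to 3.45 (exact permutation p = 0.866). Without middle-aged female 2 the difference was 1.08 points in the other direction (exact permutation p = 0.467).

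The level of each gene was tested next, for age with sex as a covariate, in edgeR's quasi-likelihood test across all 13129 genes that passed a filter on low counts. Of the 53 members 40 passed it: 22 Trbv, 2 Trbd, 14 Trbj and 2 Trbc genes. None of the 40 was called at a Benjamini-Hochberg adjusted p under 0.05 in edgeR, beside 3 of all genes tested (0.0229%). None of the 40 had an unadjusted p under 0.05, beside 2.99% of all genes, and none had CPM values that did not overlap between the ages, beside 1.31%. DESeq2 called none of the 40 either, beside 0.853% of all genes, with 4 at an unadjusted p under 0.05 (10.0%, beside 4.43% of all genes), and limma voom with quality weights none, beside 1.04%, with 11 at an unadjusted p under 0.05 (27.5%, beside 8.86%). The lowest adjusted p in edgeR was 1.00.

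The fitted log2 fold change, middle-aged over young, was negative for 36 of the 40 genes and positive for 4, with a median of -0.33 against 0.00 for all genes. With median-of-ratios size factors and with library size alone the median was -0.35 and -0.34. It was -0.15 in males alone and -0.52 in females alone, and leaving out 1 library it was -0.48 without middle-aged male 1 to -0.19 without young female 1. The median standard error of the members was 0.37. The 4 positive values were those of Trbv23 (0.48 ± 0.58 SE), Trbv26 (0.26 ± 0.42), Trbv20 (0.23 ± 0.29) and Trbv19 (0.13 ± 0.26). Trbv26 was negative in females alone and without middle-aged male 1, and Trbv19 in females alone. For Trbv23 the value rested on 1 library, since its middle-aged levels were 4.56, 2.42, 10.6, 1.75 and 2.08 CPM against 1.67 to 4.86 CPM in young libraries, and without middle-aged female 1 it was -0.17.

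The lowest values were those of Trbj1-2 (-1.08 ± 0.53 SE), Trbv5 (-1.06 ± 0.66) and Trbj1-4 (-1.06 ± 0.55). Trbj1-2 stood at 1.53 to 6.84 CPM in young libraries and at 1.38, 1.83, 1.43, 2.46 and 2.51 CPM in middle-aged males 1 and 2 and females 1 to 3. Trbj1-4 stood at 3.07 to 9.61 CPM and at 0.95, 2.36, 2.64, 2.21 and 5.54 CPM. For both genes the highest value at each age was that of a library numbered 3. Those libraries were young male 3, young female 3 and middle-aged female 3, so the number was not balanced between the ages. With the number added to the edgeR fit as a block, the log2 fold changes were -0.83 for Trbj1-2 and -0.82 for Trbj1-4. That of Trbv5 was -1.03, and none of them was called. Trbv5, the V beta 1 segment, had only 3 to 19 counts per library. Its log2 fold change for sex, male over female, was -1.80 (edgeR, unadjusted p = 0.0207), and it was not called after adjustment. None of the members passed the test of sex, for which 5 genes (0.0381%) were called, or of age by sex, for which none (0%) were called.

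The whole V group was lower in middle-aged libraries by 0.29 on the log2 CPM scale, with a mean of 9.78 ± 0.365 (SD, n = 6) in young and 9.49 ± 0.403 (SD, n = 5) in middle-aged libraries. The interval of the difference was -0.83 to 0.23 (exact permutation p = 0.234). Leaving out 1 library it was -0.40 without middle-aged female 1 to -0.17 without young female 1 or middle-aged female 3. Trbc1 stood at 467 to 1346 CPM in young and 381 to 853 CPM in middle-aged libraries, and Trbc2 at 920 to 3399 and 926 to 2040 CPM. Their log2 fold changes were -0.27 ± 0.33 SE and -0.29 ± 0.36 SE, and the highest level of both genes was that of young female 1. Without that library the fold changes were 0.0040 and -0.00036, and in males alone they were 0.031 and 0.25.

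**Figure D5:**
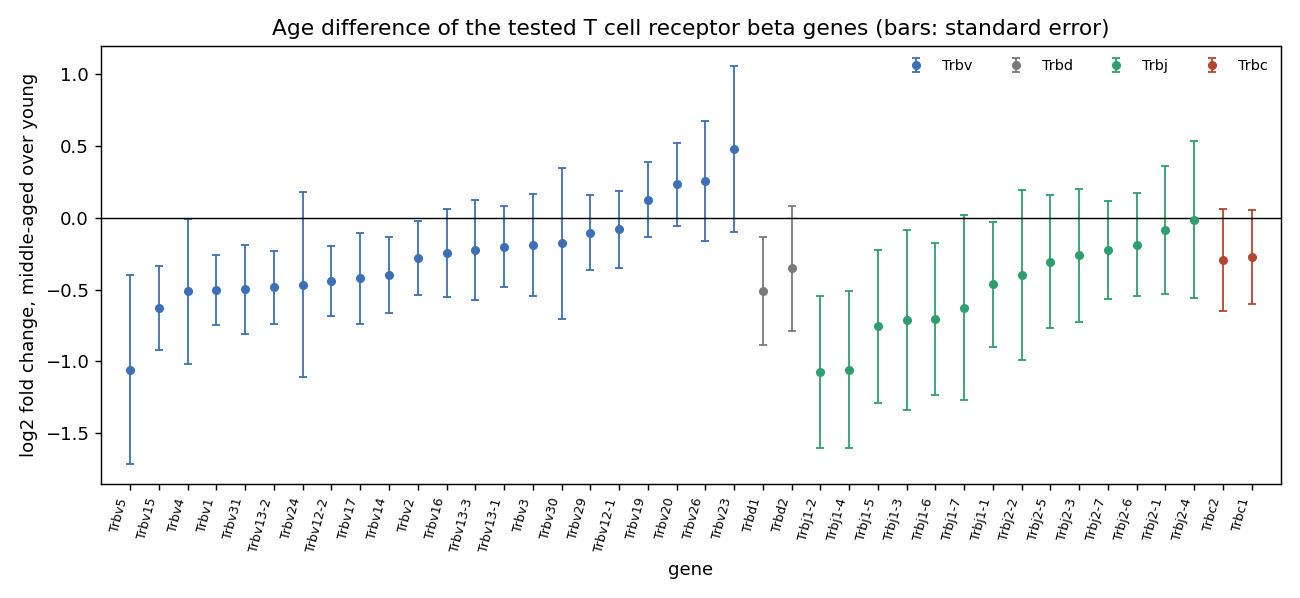
Log2 fold change of middle-aged over young from the edgeR fit (y axis) with its standard error for the 40 tested T cell receptor beta genes (x axis), ordered within V, D, J and C genes. All but 4 points lie below 0, the range is -1.08 to 0.48, and none passed the test.

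The other genes of the receptor and its signalling were read from the same fit. Of the list of 16, 12 passed the filter, 3 had a positive and 9 a negative fold change with a median of -0.09, and none was called. Trac, the constant gene of the alpha chain, had a log2 fold change of -0.41 ± 0.32 SE, and Cd3d, Cd3e and Cd3g, which carry the signal of the receptor, had -0.26, 0.01 and -0.16. Rag1 and Rag2, the recombinase genes, were at 0 in all 11 libraries, Ptcra, the partner of the beta chain in thymocytes, reached at most 8 counts, and Dntt, which adds bases at the joins, at most 55.

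Pseudogenes carried 0.180% to 0.753% of the Trbv counts. Nearly all of this was Trbv24, which held 0.180% to 0.753% in young and 0.451%, 0.241%, 0.402%, 0.257% and 0.193% in middle-aged libraries. The other 4 detected pseudogenes reached at most 9 counts in any library. The 8 pseudogenes at 0 were Trbv6, Trbv7, Trbv8, Trbv10, Trbv11, Trbv18, Trbv27 and Trbv28. Detection limits for these follow the depth, since 3 counts correspond to 0.123 to 0.489 CPM.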

How the data were processed

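CD8+CD44+Ly49+CD122+ T cells were bead-enriched and sorted from spleens, and RNA was made into SMARTer libraries. The deposited table gives whole-number counts per Ensembl gene as the authors left them, 1 column per library. It also gives gene lengths and coordinates, and the coordinates of all 53 members equal those of GENCODE M21 (GRCm38). The submitters' processing notes name kallisto and mm10. The counter, strandedness and versions are not given in the sources used here.

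The members, gene lists and tests were chosen with earlier results of these data known. Shares, entropy in bits and Bray-Curtis distances were computed from the counts in Python 3.11.15 with numpy 2.4.6, scipy 1.17.1 and pandas 2.3.3. Single values per library were compared by exact permutation of age, two-sided except for the between-age distance. Genes were tested in edgeR 4.0.16 (R 4.3.3) with TMM factors, filterByExpr (minimum count 10, minimum total 15), sex as covariate, and adjusted p under 0.05. CPM used a prior count of 2 on the log2 scale. DESeq2 1.42.0 and limma 3.58.1 (voom with quality weights) were alternatives, as were other scalings, filters and left-out libraries. Sequences were aligned with Biopython 1.88. The scripts were tested on simulated data. Depth was 6135736 to 24394532 counts per library.

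The text names every Trbv gene with at least 5% in any library, the leading V and J genes, the 3 highest and 3 lowest tested members, both constant genes and the most used pseudogene.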

Additional observations from a re-analysis of the deposited data

Results flagged for a closer look

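Of 34 groups of libraries of 1 age tested for a library far from the rest, 3 were flagged, where chance flags about 1 in 20. Trbc2 took 63.3% of the constant gene counts in middle-aged female 2 (95% Wilson interval 62.8% to 63.8%), against 70.1% to 70.9% in the other 4 middle-aged libraries. Trbv3 held 2.77% of the Trbv counts in the same library, against 7.51% to 8.70% in the others. Trbv19 held 2.94% in young male 1 (interval 2.50% to 3.44%), against 4.25% to 5.03% in the other 5 young libraries.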

How the results depend on the processing

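Under all alternatives no T cell receptor beta gene was called for age. The count of 3 among 13129 genes became 17 of 25060 with at least 1 count in any library, 5 with at least 10 counts in every library, 5 without the sex term, 112 in DESeq2, 136 in limma voom with quality weights, 0 in males or females alone, and 1 to 4 leaving out 1 library (1 without young male 2, young female 2 or 3, or middle-aged female 1 or 3). Replicate block: the labels do not say what the number marks, and not every same-numbered pair exceeded 0.1, with correlations of deviations of 0.00 to 0.56 in 15 same-numbered pairs, of which 12 exceeded 0.1, against -0.51 to 0.41 in 30 other pairs, and 9 of 11 libraries correlated best with their own number. With the block 19 genes and none of the members were called, 10 members had an unadjusted p under 0.05 (25.0%, beside 8.87% of all genes), and the Trbj2 difference of 6.74 points had an exact permutation p of 0.0463. It changed no call of the entropy, largest share, summed Trbv level, Trbc2 share or between-age distance, and was not run for the spread, sex, age by sex or the correlation. Leaving out 1 library, the entropy difference was 0.0120 to 0.0427 bits, the largest share -1.48 (exact permutation p = 0.0429 without middle-aged female 3) to -0.68 points, the Trbc2 share -1.14 to 1.08, the spread -0.0058 to 0.0313, the sex difference -0.0671 to -0.0382 (over 0.05 or at it without 6 of the 11 libraries) and the between-age distance 0.0071 to 0.0143. The latter was 0.00785 in males and 0.00969 in females alone, where the design allows no p under 0.05. The alpha and beta entropies had r = 0.484 without the 2 outermost libraries. Of 455 values of single named genes 17 turned sign. In males alone these were Trbv3 (0.34), Trbv12-1 (0.17), Trbv13-3 (0.27), Trbv16 (0.045), Trbc1 (0.031), Trbc2 (0.25), Trbj2-7 (0.010) and Trbv24 (0.56), and in females alone Trbv19 (-0.026) and Trbv26 (-0.35). Leaving out 1 library, the log2 fold change was -0.10 to 0.46 for Trbv26, -0.17 to 0.68 for Trbv23, -0.39 to 0.054 for Trbv3, -0.27 to 0.041 for Trbv12-1, -0.58 to 0.012 for Trbv13-3 and -0.47 to 0.0040 for Trbc1. Their causes were not tested.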
